A study of Homo sapiens with 12 samples.

Results

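STEAP4 was 13.6 to 23.2 times higher in degron (++) than in degron (−) PANC-1 cells, whereas STEAP1, STEAP2 and STEAP3, the other members of the same reductase family, were lower. The transferrin receptor gene TFRC and the ferritin light chain gene FTL were modestly lower and the ferritin heavy chain gene FTH1 and the divalent metal transporter gene SLC11A2 modestly higher, while transcripts of the iron exporter ferroportin, SLC40A1, were close to 0 in all libraries. These genes were chosen by name: STEAP1, STEAP2, STEAP3, STEAP4, TFRC, SLC11A2, FTH1, FTL, SLC40A1 and HAMP, 10 of the 23284 gene symbols listed in each library. Of these, 8 reached 1 FPKM (fragments per kilobase of transcript, scaled by the mapped reads of the library) in at least 2 libraries and were tested with 12946 genes in all. SLC40A1 and HAMP did not reach that level. STEAP2 and STEAP4 reached it only through the population in which they were high. The STEAP4 ratios divide by degron (−) levels of 0.248 to 0.628 FPKM and are imprecise. The differences of FTH1 and SLC11A2 depended on how the libraries were scaled. When each library was rescaled to an equal sum, FTH1 was no longer called, and SLC11A2 was called only in the unirradiated cells.

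PANC-1 is an established line from a human pancreatic ductal carcinoma. All cells carried a retroviral construct in which the green fluorescent protein ZsGreen is joined to the degron of ornithine decarboxylase, so that fluorescence builds up in cells with low proteasome activity, a property used to enrich stem-like cancer cells. The 12 libraries form 6 groups of 2. Degron (++), titled ZsGreen++, and degron (−), titled ZsGreen−, were each measured without irradiation at 48 h (0 Gy), 30 h after a dose of 4 Gy and 48 h after 4 Gy of gamma rays. When the 48 h of the unirradiated cells began is not stated, and no unirradiated group was measured at 30 h. According to the methods, degron (−) is the infected line itself and degron (++) the brightest portion of a population obtained from it by repeated sorting, so a single sorted lineage stands for the bright cells. The short descriptions of the ZsGreen− libraries carry a single plus sign, and the titles were followed here. Nothing states that the 2 libraries of a group came from separate cultures, and p-values measure only the spread between these libraries, which may be technical.

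Cells take up iron mainly as transferrin bound to the transferrin receptor. In the endosome a STEAP protein reduces the iron, chiefly STEAP3 in red cell precursors, and the divalent metal transporter encoded by SLC11A2 carries it into the cytosol. Surplus iron is stored in ferritin, a shell of heavy chains, which oxidise iron, and light chains, which aid its deposition, and leaves the cell through ferroportin, which the liver hormone hepcidin, encoded by HAMP, removes from the membrane. STEAP2, STEAP3 and STEAP4 reduce iron and copper with electrons from NADPH, while STEAP1 lacks the part of the protein that binds NADPH.

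Several of these transcripts carry an iron responsive element, a short hairpin that is bound by the iron regulatory proteins when iron is scarce. In a 5′ untranslated region the bound hairpin blocks translation, and in the 3′ untranslated region of TFRC it protects the transcript. The TFRC elements thus act on the transcript itself, and those of FTH1, FTL and SLC40A1 on translation. The elements are shown because transcript level is all that was measured here, and control of translation lies beyond it. They were found by a search for C, any 5 bases, CAGTGN and 5 bases able to pair with the first 5 (G with T allowed), on the transcript strand of the GENCODE annotation of GRCh38. A single coding transcript of each gene was searched, the principal one where marked. The capitals mark the 6 bases of the loop.
TFRC 3′ untranslated region: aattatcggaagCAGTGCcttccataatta
TFRC 3′ untranslated region: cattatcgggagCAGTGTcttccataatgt
TFRC 3′ untranslated region: ctgtatcggagaCAGTGAtctccatatgtt
TFRC 3′ untranslated region: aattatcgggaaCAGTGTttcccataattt
FTH1 5′ untranslated region: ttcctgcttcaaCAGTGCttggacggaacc
FTL 5′ untranslated region: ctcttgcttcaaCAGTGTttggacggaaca
SLC40A1 5′ untranslated region: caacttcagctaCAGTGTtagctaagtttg
The TFRC sites lie at chr3:196050978-196051007, chr3:196050574-196050603, chr3:196050509-196050538 and chr3:196050462-196050491 (minus strand), and the ferritin sites at chr11:61967573-61967602 for FTH1 (minus strand) and chr19:48965335-48965364 for FTL (plus strand). The SLC40A1 site lies at chr2:189580660-189580689 (minus strand). The same search matched the 5′ untranslated region of 0.107% and the 3′ untranslated region of 0.534% of 19669 genes. It had no match in the SLC11A2 transcript searched. Other SLC11A2 transcripts and hairpins of another shape were outside the search, so this does not show that SLC11A2 lacks an element.

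The populations differed in the markers of the line. All 6 genes of the ductal carcinoma list were above 1 FPKM, but the 5 epithelial ones (4 keratins and EPCAM) summed to 7119 to 8302 FPKM in degron (++) and 4220 to 5124 in degron (−), whereas the mesenchymal vimentin (VIM) was at 13.2 to 19.2 FPKM in degron (++) and at 2376 to 2711 in degron (−). The gap was widest for KRT7 (1142 to 1437 against 133 to 273 FPKM) and EPCAM (176 to 205 against 29.9 to 52.8). Summed markers of leukocytes (at most 2.04 FPKM), erythroid cells (at most 1.57), hepatocytes (at most 1.24) and endothelium (at most 0.556) were low in every library, and CD3E and CD163 were at 0 in all of them. The fibroblast list summed to 14.3 to 25.3 FPKM in degron (++) and 37.0 to 53.7 in degron (−), with COL1A2 and DCN at 0. Its other genes went opposite ways. LUM was at 13.8 to 24.7 FPKM in degron (++) and 0.290 to 1.6 in degron (−), and COL1A1 at 0.531 to 0.826 and 36.5 to 52.3. CDKN2A, known to be deleted in PANC-1, was at 100.4 to 112 FPKM in degron (++) and 11.04 to 21.1 in degron (−), and its neighbours CDKN2B (9.79 to 15.5 against 0.907 to 2.83) and MTAP (16.4 to 18.5 against 2.83 to 5.001) lay on the same sides. These levels go against that deletion, most of all in degron (++), and the line is called PANC-1 here as the labels name it. Within degron (−) all of CDKN2A, CDKN2B and MTAP were lowest in the 30 h libraries and highest in those 48 h after 4 Gy. The part of this difference in the results that follow was not tested.

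**Figure D1:**
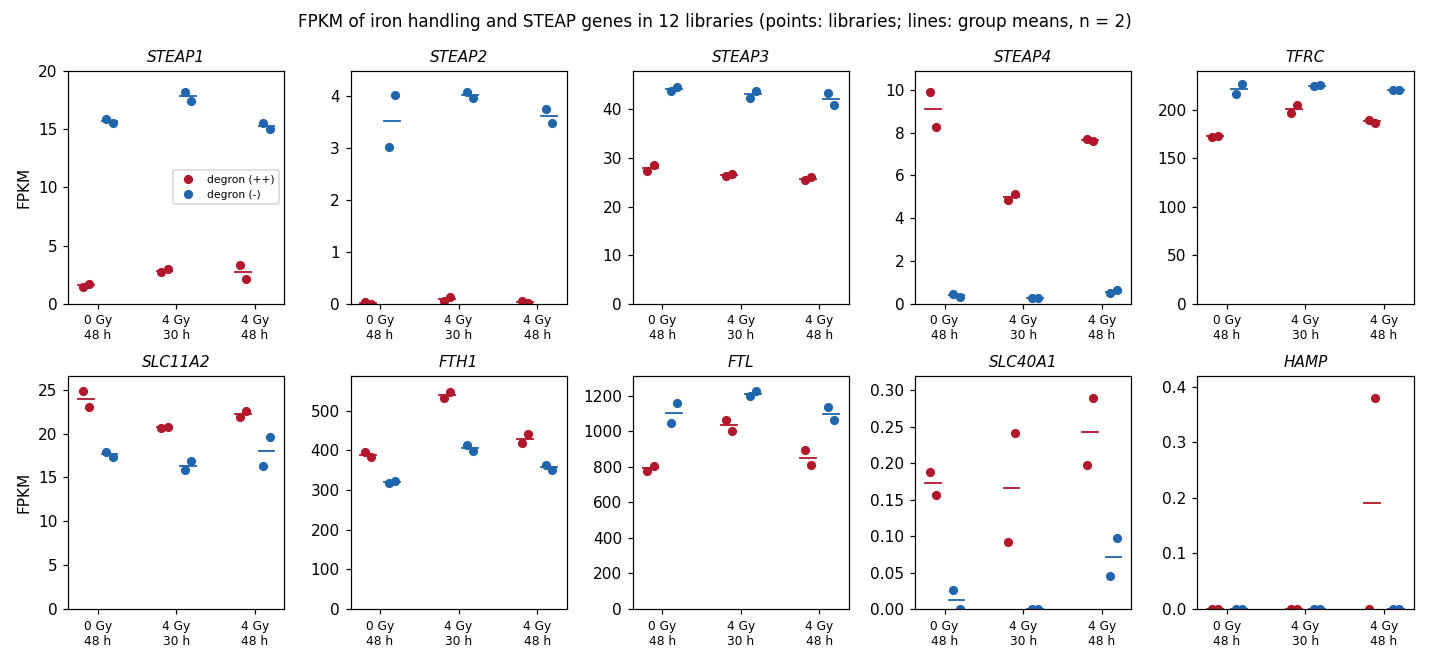
FPKM of the 10 iron handling and STEAP genes (y axis, starting at 0 in each panel) in degron (++) (red) and degron (−) (blue) without irradiation, 30 h after 4 Gy and 48 h after 4 Gy; points are libraries and lines the means of 2 libraries. STEAP1, STEAP2, STEAP3, TFRC and FTL sit lower in degron (++) in every condition, STEAP4, SLC11A2 and FTH1 sit higher, and SLC40A1 and HAMP stay below 0.4 FPKM.

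The first question was how the populations differed at matched dose and time. All 8 tested genes passed an adjusted p of 0.05 (limma on log2(FPKM + 1), Benjamini-Hochberg over all 12946 genes) in each of the 3 conditions, with 3 higher and 5 lower in degron (++) each time. In the unirradiated cells 77.7% of all genes passed (37.6% higher and 40.2% lower), at 30 h 79.1% (38.3% and 40.8%) and at 48 h after 4 Gy 76.7% (37.1% and 39.6%), so that passing was usual and the count is no result about these genes. The sizes were not alike. By absolute difference STEAP4, STEAP1 and STEAP2 exceeded 97.1%, 96.5% and 93.6% of all genes tested at 0 Gy and 48 h, whereas SLC11A2, TFRC and FTH1 exceeded 43.1%, 37.4% and 30.3%. STEAP4 and STEAP2 were among the genes tested only because of the population in which they were high. The median absolute difference of the 8 genes was 0.56 on the log2 scale at 0 Gy, near the 0.51 of all genes.

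**Figure D2:**
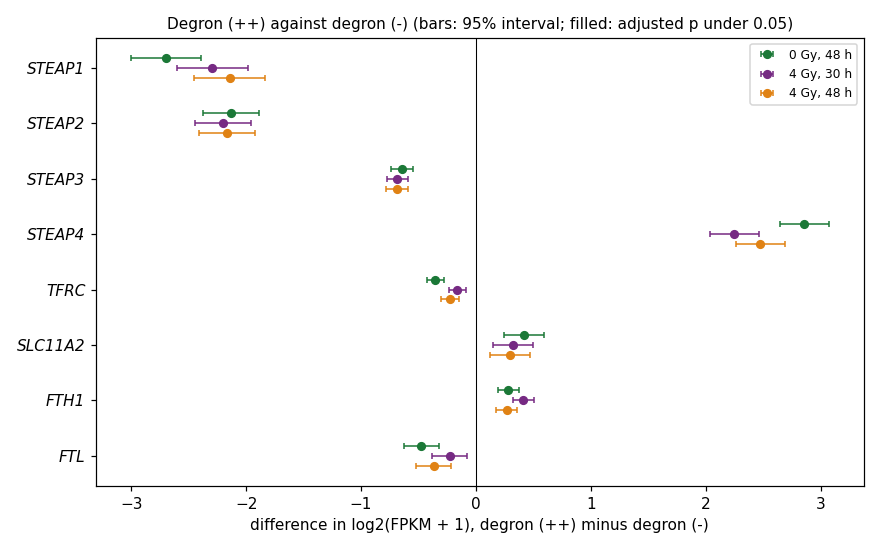
Difference in log2(FPKM + 1) between degron (++) and degron (−) (x axis) for the 8 tested genes (y axis) in the 3 conditions; points are fitted differences from 2 libraries a group, bars their 95% intervals, and filled points have an adjusted p under 0.05. STEAP4 lies between 2.25 and 2.85 and STEAP1 and STEAP2 below −2, while the other 5 genes lie within 0.7 of 0.

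STEAP4, a ferric and cupric reductase best known from fat and inflamed tissue, was the STEAP gene that was higher in degron (++). Its levels there were 9.88 and 8.27 FPKM at 0 Gy, 4.86 and 5.13 at 30 h after 4 Gy, and 7.70 and 7.60 at 48 h after 4 Gy. In degron (−) they were 0.462 and 0.320, 0.274 and 0.248, and 0.494 and 0.628 FPKM in the same order. Every degron (++) library was above every degron (−) library, a separation seen in 71.3% of all genes tested. All degron (−) values were under 1 FPKM, so STEAP4 was tested only because it was high in degron (++), and its ratios rest on small denominators. Mean levels differed 23.2-fold at 0 Gy, 19.1-fold at 30 h and 13.6-fold at 48 h after 4 Gy, and the log2 differences were 2.85 ± 0.09 (SE), 2.25 ± 0.09 and 2.47 ± 0.09 (adjusted p = 1.05e-08, 3.71e-08 and 3.05e-08). In bulk RNA, a population with fewer cells that express a gene cannot be told apart from one with less of its transcript in each cell.

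STEAP1, a cell surface antigen of prostate and other carcinomas, was lower in degron (++). The degron (++) libraries held 1.45 and 1.71 FPKM at 0 Gy, 2.70 and 2.97 at 30 h, and 3.36 and 2.099 at 48 h after 4 Gy. The degron (−) libraries held 15.9 and 15.5, 18.2 and 17.4, and 15.5 and 15.04 FPKM. The populations were far apart and the degron (++) values scattered more in proportion. The mean was 9.94, 6.27 and 5.59 times higher in degron (−), and the log2 differences were −2.70 ± 0.14, −2.29 ± 0.14 and −2.14 ± 0.14 (adjusted p = 1.35e-07, 3.46e-07 and 6.90e-07). STEAP1 shares 22.1% of the 50-base stretches of its transcript with STEAP1B, a shorter relative elsewhere in the genome, so reads could be split between them. STEAP1B was at 0 in all 6 degron (++) libraries and at 9.31 to 12.2 FPKM in degron (−), on the same side as STEAP1.

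STEAP2, a reductase that also cycles between the Golgi and the cell surface, was barely measured in degron (++). Its level was 0.044 and 0 FPKM at 0 Gy, 0.050 and 0.130 at 30 h, and 0.046 and 0.013 at 48 h after 4 Gy. The degron (−) libraries held 3.01 and 4.02, 4.07 and 3.96, and 3.75 and 3.48 FPKM. The gap was complete, and no ratio is given against values this near 0. The log2 differences were −2.14 ± 0.11, −2.20 ± 0.11 and −2.16 ± 0.11 (adjusted p = 1.39e-07, 9.97e-08 and 1.51e-07), and the added 1 FPKM on the log scale makes them smaller than the change in level.

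STEAP3, the endosomal ferrireductase of the transferrin cycle, was the most abundant STEAP gene per length in both populations. It stood at 27.4 and 28.6 FPKM at 0 Gy, 26.2 and 26.7 at 30 h, and 25.4 and 26.1 at 48 h after 4 Gy in degron (++). In degron (−) it stood at 43.7 and 44.7, 42.4 and 43.7, and 43.4 and 40.9 FPKM. The libraries of each population lay close together whatever the dose and time. The degron (−) mean was 1.58, 1.63 and 1.64 times higher, with log2 differences of −0.64 ± 0.04, −0.68 ± 0.04 and −0.69 ± 0.04 (adjusted p = 7.01e-07, 4.08e-07 and 4.92e-07).

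Since FPKM is scaled by length, STEAP1, STEAP2, STEAP3 and STEAP4 can be added up within a library. Their sum was 33.8 to 38.8 FPKM in the 6 degron (++) libraries and 60.1 to 65.3 in the 6 degron (−) libraries. STEAP3 made up 73.5% ± 3.11 (SD, n = 6) of the sum in degron (++) and 67.9% ± 1.57 (n = 6) in degron (−). The second largest share was STEAP4 in degron (++), with 19.7% ± 4.34 (n = 6), and STEAP1 in degron (−), with 25.6% ± 1.48 (n = 6). STEAP1 made up 6.62% ± 2.27 in degron (++), STEAP2 0.133% ± 0.130 in degron (++) and 5.84% ± 0.550 in degron (−), and STEAP4 0.643% ± 0.257 in degron (−). These SDs run over libraries of different dose and time, and no test was applied to the shares. STEAP1B was left out of the sum. It was at 9.31 to 12.2 FPKM in degron (−) and at 0 in degron (++), so counting it would raise the sum and lower these shares in degron (−) only.

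**Figure D3:**
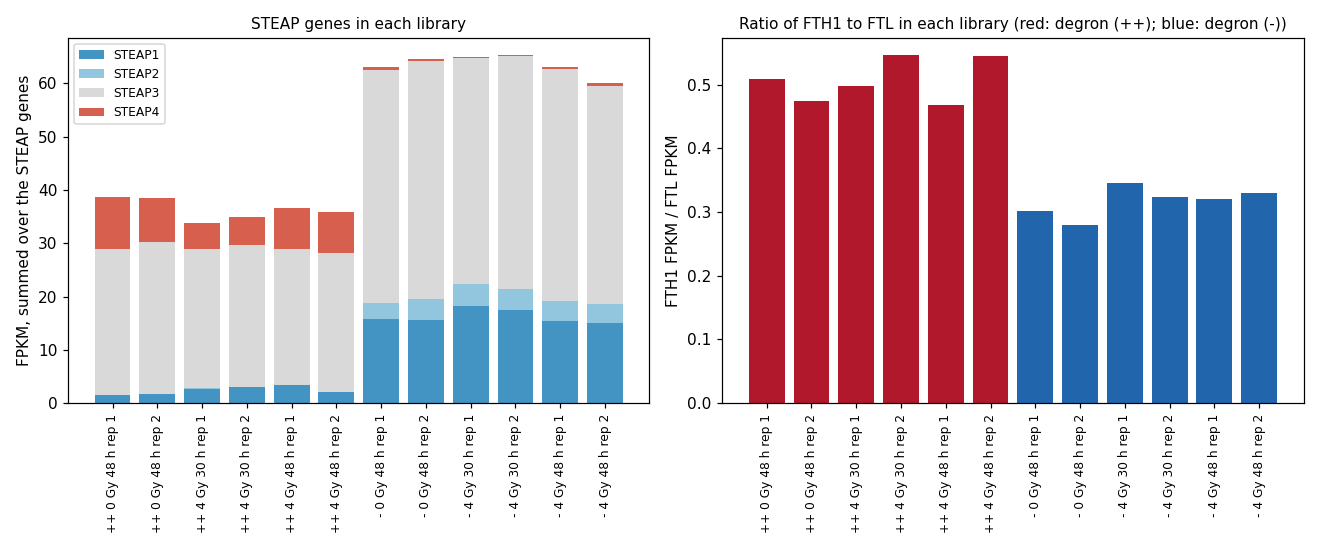
Left, FPKM of STEAP1, STEAP2, STEAP3 and STEAP4, without STEAP1B, stacked for each of the 12 libraries (y axis, summed FPKM). Right, the ratio of FTH1 to FTL FPKM in the same libraries (y axis, no unit), with degron (++) in red and degron (−) in blue. The STEAP sum is 33.8 to 38.8 FPKM in degron (++) with a visible STEAP4 segment and 60.1 to 65.3 in degron (−) with STEAP1 and STEAP2 segments, and the ferritin ratio is above 0.46 in all degron (++) and below 0.35 in all degron (−) libraries.

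STEAP4, STEAP1 and STEAP2 lie in this order on chromosome 7, with other genes between STEAP4 and STEAP1. STEAP4 differed between the populations in the opposite direction to STEAP1 and STEAP2. Of the genes listed between STEAP4 and STEAP1, ZNF804B and TEX47 (given as C7orf62) were at 0 in all 12 libraries and the pseudogene DPY19L2P4 did not exceed 0.092 FPKM. The 250 bases before the start of each of the 3 STEAP genes are printed because these related genes differed in direction (RefSeq, GRCh38.p14, 5′ to 3′ on the gene's strand), with every CpG, the letters CG, in capitals. STEAP4 lies on the minus strand (chr7:88306895-88307144), and STEAP1 (chr7:90154219-90154468) and STEAP2 (chr7:90211490-90211739) on the plus strand.
STEAP4: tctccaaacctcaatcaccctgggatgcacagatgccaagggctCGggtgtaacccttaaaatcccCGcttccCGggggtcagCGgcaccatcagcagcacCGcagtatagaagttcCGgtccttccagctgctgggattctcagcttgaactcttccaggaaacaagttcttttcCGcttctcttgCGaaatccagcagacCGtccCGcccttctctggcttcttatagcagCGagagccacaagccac
STEAP1: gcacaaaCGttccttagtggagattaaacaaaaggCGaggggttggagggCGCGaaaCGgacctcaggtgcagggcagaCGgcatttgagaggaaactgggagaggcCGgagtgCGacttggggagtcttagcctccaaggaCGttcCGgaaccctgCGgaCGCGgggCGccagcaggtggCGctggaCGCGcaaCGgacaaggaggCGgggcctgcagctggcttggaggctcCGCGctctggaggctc
STEAP2: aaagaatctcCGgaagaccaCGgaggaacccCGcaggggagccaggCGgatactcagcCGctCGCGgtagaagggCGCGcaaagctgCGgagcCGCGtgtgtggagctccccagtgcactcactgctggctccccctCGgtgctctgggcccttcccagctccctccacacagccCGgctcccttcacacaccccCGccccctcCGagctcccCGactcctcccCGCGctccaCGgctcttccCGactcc
The STEAP4 window held 11 CpGs, the median of 35116 windows of this length, and the STEAP1 and STEAP2 windows held 21 each, below the upper quartile of 23. The table holds another start of STEAP2 whose window had 2 CpGs. Methylation was not measured in these libraries.

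TFRC, which encodes the receptor for transferrin-bound iron, was lower in degron (++), by a small margin at a high level. Its values were 172 and 174 FPKM at 0 Gy, 197 and 205 at 30 h, and 189.9 and 187 at 48 h after 4 Gy in degron (++). The degron (−) values were 216 and 226, 225 and 225, and 220.4 and 220.2 FPKM. No degron (++) library reached the lowest degron (−) library, although the 30 h libraries came near it. The degron (−) mean was 1.28, 1.12 and 1.17 times higher, and the log2 differences were −0.35 ± 0.03, −0.16 ± 0.03 and −0.23 ± 0.03 (adjusted p = 8.91e-06, 0.0015 and 0.000208).

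SLC11A2, the transporter that moves ferrous iron out of the endosome, went the other way from the receptor. The degron (++) libraries held 24.9 and 23.0 FPKM at 0 Gy, 20.7 and 20.8 at 30 h, and 21.9 and 22.5 at 48 h after 4 Gy. The degron (−) libraries held 17.9 and 17.4, 15.9 and 16.8, and 16.4 and 19.6 FPKM. The highest degron (−) library, 1 of the pair at 48 h after 4 Gy, lay just under the lowest degron (++) library. The degron (++) mean was 1.36, 1.27 and 1.24 times higher, with log2 differences of 0.42 ± 0.08, 0.32 ± 0.08 and 0.30 ± 0.08 (adjusted p = 0.000831, 0.00366 and 0.00634).

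FTH1 and FTL, the ferritin chains, differed in opposite directions. FTH1, the chain that oxidises iron, was at 395 and 382 FPKM at 0 Gy, 531 and 548 at 30 h, and 418 and 441 at 48 h after 4 Gy in degron (++). In degron (−) it was at 317 and 324, 413 and 397, and 363 and 351 FPKM. The populations were apart within each condition, but the 30 h degron (−) libraries lay above the unirradiated degron (++) libraries. The degron (++) mean was 1.21, 1.33 and 1.204 times higher, with log2 differences of 0.28 ± 0.04, 0.41 ± 0.04 and 0.27 ± 0.04 (adjusted p = 0.000172, 1.12e-05 and 0.000244).

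FTL, the chain that aids mineral formation, was the most abundant of the 10 genes per length in every library. It stood at 777 and 807 FPKM at 0 Gy, 1065 and 1002 at 30 h, and 892 and 809.8 at 48 h after 4 Gy in degron (++). In degron (−) it stood at 1047 and 1158, 1198 and 1226, and 1134 and 1064 FPKM. Libraries of the populations were apart within each condition and overlapped across conditions. The degron (−) mean was 1.39, 1.17 and 1.29 times higher, with log2 differences of −0.48 ± 0.07, −0.23 ± 0.07 and −0.37 ± 0.07 (adjusted p = 0.00013, 0.00993 and 0.000701). At 30 h the call was lost without 1 library of either group, with −0.19 (adjusted p = 0.0689) without degron (++) replicate 2 and −0.21 (adjusted p = 0.0516) without degron (−) replicate 2.

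The ratio of FTH1 to FTL within a library does not depend on how libraries are scaled against each other by a single factor. It was 0.507 ± 0.0336 (SD, n = 6) in degron (++), from 0.468 to 0.547, and 0.317 ± 0.0229 (n = 6) in degron (−), from 0.280 to 0.345. The populations did not overlap, and within each the means of the 3 conditions were 0.491, 0.523 and 0.507 in degron (++) and 0.291, 0.335 and 0.325 in degron (−) (0 Gy, 30 h and 48 h after 4 Gy). Both ferritin transcripts have processed copies in the genome: FTH1 shares 40.4% of its 50-base stretches with 15 other genes and FTL 18.3% with FTLP3 and FTLP2, so the split of their reads is uncertain. Levels of FTLP3, FTLP2 and the genes sharing most with FTH1 (FTH1P10, FTH1P7 and FTH1P2) were not examined. Other relatives were low or absent, with FTH1P3 at 0.110 to 0.902 FPKM and FTHL17, FTLP10 and the mitochondrial ferritin gene FTMT at 0 in all libraries. These values do not show how many reads went to the copies that were not examined.

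Whether the smaller differences passed depended on how the libraries were scaled. FPKM summed to 829654 to 916877 in degron (++) and to 707273 to 763064 in degron (−), and a single transcript, MIR622, took 28.6% to 30.0% and 22.5% to 27.1% of these sums. Rescaling each library to an equal sum (TPM) moved the median log2 difference of all genes from −0.02, −0.02 and −0.01 to −0.21, −0.27 and −0.25 (0 Gy, 30 h and 48 h after 4 Gy), and the share of calls that were higher in degron (++) from 48.3%, 48.5% and 48.3% to 35.9%, 33.3% and 31.7%. On that scale FTH1 no longer passed, with differences of 0.07, 0.13 and 0.00 (adjusted p = 0.381, 0.12 and 0.978), and SLC11A2 passed only at 0 Gy, with 0.22, 0.05 and 0.04 (adjusted p = 0.0414, 0.575 and 0.655). TFRC was then at −0.56, −0.45 and −0.49 and FTL at −0.68, −0.51 and −0.63, and these and the STEAP genes kept their calls. With quantile normalisation all 8 genes passed in all 3 conditions, with FTH1 at 0.20, 0.20 and 0.14, TFRC at −0.40, −0.32 and −0.33 and FTL at −0.82, −0.65 and −0.77.

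SLC40A1, the gene of ferroportin, the known cellular iron exporter, was close to 0. Its levels were 0.188 and 0.157 FPKM at 0 Gy, 0.092 and 0.241 at 30 h, and 0.197 and 0.290 at 48 h after 4 Gy in degron (++). In degron (−) they were 0.026 and 0, 0 and 0, and 0.045 and 0.097 FPKM. Each condition's degron (++) libraries lay above its degron (−) libraries, but the gene was not tested with the main filter. Without a filter the log2 differences were 0.21, 0.22 and 0.21 (adjusted p = 0.0318, 0.0265 and 0.0301). HAMP, which encodes hepcidin, was listed at 0 in 11 libraries and at 0.380 FPKM in 1 library of degron (++) at 48 h after 4 Gy. With no counts in the files, how many reads lie behind these values is unknown.

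The second question was whether the genes changed with irradiation. Comparing 4 Gy with 0 Gy at 48 h, none of the 8 genes passed the adjusted threshold in degron (++), where 1.82% of all genes did, or in degron (−), where 4.73% did (limma). At an unadjusted p under 0.05 there were 5 of 8 in degron (++), where 17.6% of all genes lay under it, and 1 of 8 in degron (−), where 20.9% did. In degron (++) the log2 differences were 0.51 ± 0.14 for STEAP1 (adjusted p = 0.103), −0.22 ± 0.09 for STEAP4 (adjusted p = 0.28), 0.14 ± 0.04 for FTH1 (adjusted p = 0.118), 0.12 ± 0.03 for TFRC (adjusted p = 0.108) and −0.11 ± 0.04 for STEAP3 (adjusted p = 0.198). The STEAP1 libraries at 48 h after 4 Gy differed from each other (3.36 and 2.099 FPKM), and without the lower of them, replicate 2, STEAP1 passed at 0.76 (adjusted p = 0.0376). In degron (−), FTH1 was at 0.16 ± 0.04 (adjusted p = 0.065), and the 95% intervals of TFRC (−0.08 to 0.07) and STEAP3 (−0.16 to 0.03) held no difference beyond 0.2 in size.

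The third comparison set 48 h against 30 h after 4 Gy and used the same 48 h libraries as the comparison of doses, so the pair of comparisons is not independent. FTH1 fell in both populations, by 0.33 ± 0.04 on the log2 scale in degron (++) (adjusted p = 0.0118) and by 0.18 ± 0.04 in degron (−) (adjusted p = 0.0304). STEAP4 rose by 0.53 ± 0.09 in degron (++) (adjusted p = 0.0405), from 4.86 and 5.13 to 7.70 and 7.60 FPKM, and was at 0.31 ± 0.09 in degron (−) (adjusted p = 0.0924), from 0.274 and 0.248 to 0.494 and 0.628. The 2 calls of 8 in degron (++) stand beside 1.21% of all genes, and the 1 call of 8 in degron (−) beside 7.18%. FTL was at −0.28 ± 0.07 in degron (++) (adjusted p = 0.0916) and −0.14 ± 0.07 in degron (−) (adjusted p = 0.25). The 30 h libraries were the highest of their population in FTH1, and the lowest of degron (++) in STEAP4.

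These calls rest on pairs of libraries and were not firm. For STEAP4 in degron (++) the adjusted p was 0.15 to 0.168 when any 1 of the 4 libraries was left out, 0.0559 to 0.144 with TPM rescaling, quantile normalisation, no filter or an added 0.1 FPKM, and 0.0669 with a replicate block. For FTH1 in degron (++) it was 0.0415 to 0.11 without 1 library, only the fit without replicate 2 at 48 h staying under the threshold, and 0.0943 with TPM rescaling. For FTH1 in degron (−) it was 0.0577 to 0.191 without 1 library. In a fit of the 4 libraries alone, no member passed in either population. With an added 0.1 FPKM in place of 1 the difference of STEAP4 in degron (−), whose levels are under 1 FPKM, was 0.87 (adjusted p = 0.0186).

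**Figure D4:**
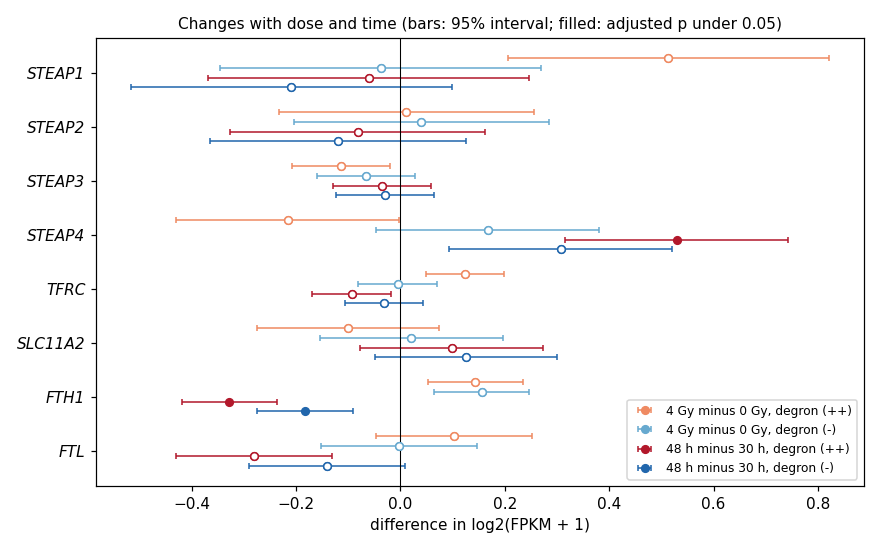
Difference in log2(FPKM + 1) (x axis) for 4 Gy against 0 Gy at 48 h and for 48 h against 30 h after 4 Gy in each population, for the 8 tested genes (y axis); points are fitted differences from 2 libraries a group, bars their 95% intervals, and filled points have an adjusted p under 0.05. The filled points are STEAP4 in degron (++) at 0.53 and FTH1 at −0.33 in degron (++) and −0.18 in degron (−), all for the comparison of times.

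No member passed the test of a difference between the populations in its response (limma, interaction term), for dose, where 0.0772% of all genes passed the adjusted threshold, or for time, where 3.23% did. At an unadjusted p under 0.05 there were 3 of 8 for dose beside 13.6% of all genes, and 1 of 8 for time beside 17.9%. For dose, degron (++) minus degron (−), the values were 0.55 ± 0.19 for STEAP1 and −0.38 ± 0.13 for STEAP4 (both adjusted p = 0.269) and 0.13 ± 0.05 for TFRC (adjusted p = 0.287). For time, FTH1 was at −0.15 ± 0.06 (adjusted p = 0.222), and STEAP4 at 0.22 with a 95% interval of −0.08 to 0.52. With an added 0.1 FPKM in place of 1 this STEAP4 value was negative.

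Beyond these genes, 8 lists of iron, heme and copper genes were examined, with 91 symbols of which 87 were listed and 71 tested. Between the populations 29, 32 and 32 of the 71 were higher and 30, 30 and 28 lower in degron (++) (0 Gy, 30 h and 48 h after 4 Gy), which is 83.1%, 87.3% and 84.5% called beside 77.7%, 79.1% and 76.7% of all genes. Their median absolute log2 difference at 0 Gy was 0.53, near the 0.51 of all genes. The counts of single lists that follow stand beside 37.6%, 38.3% and 37.1% of all genes higher and 40.2%, 40.8% and 39.6% lower. No list was tested as a set, so these counts are no result about a pathway.

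**Figure D5:**
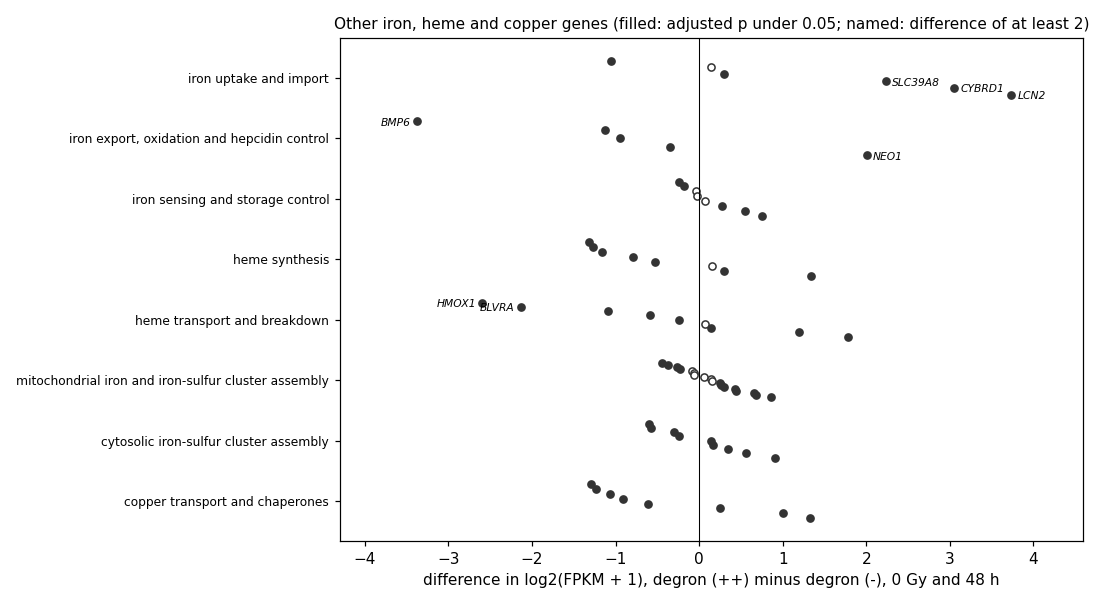
Difference in log2(FPKM + 1) between degron (++) and degron (−) at 0 Gy and 48 h (x axis) for the 71 tested genes of 8 iron, heme and copper lists (y axis, 1 row a list); each point is a gene, filled when its adjusted p was under 0.05, and genes beyond 2 in size are named. LCN2, CYBRD1, SLC39A8 and NEO1 lie above 2, and BMP6, HMOX1 and BLVRA below −2. NEO1 and BMP6 were tested only because of the population in which they were high.

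Of the uptake genes, 4 of 6 tested were higher and 1 lower in degron (++) in each condition. CYBRD1, the ferrireductase of the gut surface, was at 37.0 to 46.3 FPKM in degron (++) and 3.37 to 7.05 in degron (−), with log2 differences of 3.05, 3.07 and 2.57. It was therefore higher in the same population as STEAP4 and opposite to STEAP1, STEAP2 and STEAP3. LCN2, a secreted protein that binds iron-carrying siderophores, was at 368 to 434 and 25.8 to 61.6 FPKM, with differences of 3.73, 3.82 and 2.93. SLC39A8, a zinc and iron importer, was at 14.3 to 19.8 and 2.24 to 4.12 FPKM, with differences of 2.24, 2.42 and 1.99.

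In the list on export and hepcidin control, the export and oxidation genes CP, HEPH and HEPHL1 stayed under the filter, and the 5 genes tested (ACVR1, BMP6, BMPR1A, NEO1 and SMAD4) belong to hepcidin control. They were lower in 4 of 5 at 0 Gy and at 30 h and in 3 of 5 at 48 h after 4 Gy, and 1 was higher. BMP6, the ligand that reports iron load to hepcidin in the liver, was at 0.115 to 0.437 FPKM in degron (++) and 11.1 to 17.96 in degron (−). NEO1, a receptor that interacts with hemojuvelin, was the higher one, at 5.26 to 6.23 against 0.636 to 1.02 FPKM, and ACVR1, a BMP receptor, was lower, at −1.13, −1.34 and −1.36. BMP6 was tested only because it was high in degron (−), and NEO1 only because it was high in degron (++). In iron sensing, 3 of 8 were higher in every condition and 2, 3 and 4 of 8 lower. ACO1 and IREB2, named after their values were seen because their proteins bind the hairpins printed above, were both among the higher ones, ACO1 at 0.75, 0.85 and 0.78 and IREB2 at 0.28, 0.25 and 0.33. With TPM rescaling the all-gene medians lay at −0.21, −0.27 and −0.25, so the small IREB2 differences may depend on scaling. Its values on that scale are not reported here.

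In heme synthesis 5 of 8 were lower in each condition and 2, 3 and 3 higher. ALAS1, which catalyses the first and limiting step outside red cells, was at 26.5 to 30.6 FPKM in degron (++) and 68.4 to 86.4 in degron (−). The later enzymes UROD (−1.32, −1.497 and −1.38) and UROS (−1.16, −1.16 and −1.03) were also lower, and ALAD, which acts right after ALAS1, was higher (1.34, 1.06 and 1.04). In heme transport and breakdown 3 of 9 were higher and 5, 5 and 4 lower. HMOX1, the inducible heme oxygenase that frees iron from heme, was at 4.40 to 7.01 against 33.7 to 41.2 FPKM, BLVRA, which reduces its product biliverdin, at 10.5 to 11.95 against 49.3 to 60.4, and SLC46A1, a folate and heme importer, at 26.4 to 28.9 against 6.03 to 8.97.

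Of the genes of iron-sulfur cluster assembly, in the mitochondrial list 8, 11 and 10 of 18 were higher and 4, 4 and 2 lower, with median log2 differences of 0.15, 0.30 and 0.23, and in the cytosolic list 5, 4 and 5 of 9 were higher and 4, 3 and 4 lower. The mitochondrial medians were of about the size by which TPM rescaling moved the all-gene median, and were not computed on that scale. No gene of either list met the rule of a difference of at least 1 in each condition. Copper genes were 3 of 8 higher and 5 of 8 lower in each condition. SLC31A2, a copper transporter, was higher (1.33, 1.27 and 1.29), and ATP7B, a copper exporting pump, was lower (−1.23, −1.48 and −1.28). ATP7B was at 0.190 to 0.346 FPKM in degron (++) and 1.83 to 2.45 in degron (−), so it was tested only because of degron (−).

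With 4 Gy against 0 Gy at 48 h, 1 of the 71 genes passed in degron (++), the copper chaperone gene CCS at 0.29 ± 0.05 (adjusted p = 0.0356), which is 1.41% beside 1.82% of all genes. In degron (−) 5 rose, 7.04% beside 3.85% of all genes: LCN2 by 0.98 ± 0.10 (adjusted p = 0.0022), CYBRD1 by 0.55 ± 0.08 (adjusted p = 0.00788), SLC39A8 by 0.55 ± 0.11 (adjusted p = 0.0295), the copper chaperone gene ATOX1 by 0.20 ± 0.05 (adjusted p = 0.047) and the constitutive heme oxygenase gene HMOX2 by 0.17 ± 0.04 (adjusted p = 0.0475). From 30 h to 48 h after 4 Gy none passed in degron (++) (limma, 11 at an unadjusted p under 0.05), where 1.21% of all genes did. In degron (−) 3 passed, 4.23% beside 7.18% of all genes, so the count is no result about iron genes: LCN2 rose by 1.03 ± 0.10 (adjusted p = 0.000833), CYBRD1 by 0.74 ± 0.08 (adjusted p = 0.00116) and NDOR1, of the cytosolic assembly machinery, by 0.24 ± 0.06 (adjusted p = 0.0389). Beside these changes, CDKN2A in degron (−) went from 12.4 and 11.04 FPKM at 30 h to 21.1 and 19.1 at 48 h after 4 Gy, with 18.8 and 15.2 at 0 Gy, and STEAP4, LCN2 and CYBRD1 were likewise lowest at 30 h and highest at 48 h after 4 Gy. Every gene of these lists that rose in degron (−) was higher in degron (++) in all 3 conditions. The part of that in the changes was not tested. None of the calls for dose or time named here, CCS in degron (++) included, held under every alternative setting of the limma fit. For LCN2 in degron (−) the adjusted p reached 0.141 for dose and 0.0864 for time, and for CYBRD1 0.157 and 0.0871.

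The genes most like each member over the 12 libraries, by Pearson's r of log2(FPKM + 1), mostly followed the population difference. They were TMC4 (r = 0.999), BTBD3 and SKAP2 (both 0.998) for STEAP4, IRAK2 (0.997), SCAMP3 and UBAP2 (both 0.996) for STEAP1, ZNF829, MAP7D2 and LINC00261 (all 0.999) for STEAP2, and MKL2 (0.998), FHOD3 and IFT122 (both 0.997) for STEAP3. For the genes with smaller differences they were GSPT1 (0.982), SMS (0.979) and EEF1A2 (0.977) for TFRC, BTN3A1 (0.974), LPCAT3 (0.972) and GLP2R (0.968) for SLC11A2, EIF3I (0.957), MAST4 (0.955) and NDRG1 (0.952) for FTH1, and EIF3J (0.967), PDCD11 (0.953) and ZWILCH (0.950) for FTL. The points share 2 populations, so a value near 1 mainly describes 2 separate clusters of 6 libraries, and no p is given.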

How the data were processed

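RNA of 12 PANC-1 samples was sequenced from stranded, poly(A)-selected libraries (TruSeq stranded mRNA). The authors deposited 1 table of FPKM per library, with 23284 gene symbols. Their processing notes name TopHat2 2.1.1, Bowtie2 2.2.8, SAMtools 0.1.18, Cuffdiff 2.2.1 and hg19. The annotation and strand setting are not given in the sources used here. The deposited FPKM carry no counts, so depth and counting error are unknown.

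From these values, log2(FPKM + 1) was computed for the 12946 genes with at least 1 FPKM in at least 2 libraries and fitted with limma 3.58.1 in R 4.3.3 (lmFit, eBayes with trend), with 1 mean for each of 6 groups over all 12 libraries. Benjamini-Hochberg adjustment covered all genes tested, with a threshold of 0.05, and ± after a log2 difference is the standard error. Tables and figures used Python 3.11.15. The fit was tested on simulated data with 200 changed genes. Genes were named by rule: all members, the wider lists' genes past 1 log2 unit in one direction in all 3 conditions without overlap, those called for dose, time or interaction, close copies, and the 3 most alike genes of each member. Some genes that these rules name are not reported here. The members, lists and rules were chosen with earlier results of these data known.

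Alternatives were an added 0.1 FPKM, no filter or 5 FPKM, quantile normalisation, TPM rescaling, eBayes without trend, a replicate block, a fit of only the libraries compared, and leaving out each library. Coordinates and sequences are from GENCODE and RefSeq on GRCh38 and were not joined to the hg19 files by position.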

Additional observations from a re-analysis of the deposited data

Results flagged for a closer look

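Of the iron genes, 2 changed from 30 h to 48 h after 4 Gy to a different degree in the populations by the interaction test (limma, adjusted over all genes). This is 2.82% of the 71 tested, beside 3.23% of all genes, so the count says nothing particular about iron genes. LCN2 was at −0.89 ± 0.14 (degron (++) minus degron (−), log2, adjusted p = 0.0165), having risen from 26.2 and 25.8 to 47.5 and 61.6 FPKM in degron (−) and being at 368 and 389.9, then 402 and 434 FPKM in degron (++). CYBRD1 was at −0.51 ± 0.11 (adjusted p = 0.0479), with 3.37 and 3.99, then 6.55 and 7.05 FPKM in degron (−) and 39.6 and 37.0, then 44.1 and 46.3 FPKM in degron (++). The interaction is one of log2 changes from very different starting levels. In mean FPKM the rise of LCN2 and of CYBRD1 was not larger in degron (−) than in degron (++). The adjusted p ran from 0.000674 to 0.0705 for LCN2 and from 0.0298 to 0.164 for CYBRD1 over all alternatives, and leaving out 1 of the 8 libraries gave 0.000674 to 0.0705 and 0.0418 to 0.164. CDKN2A, which moved with both genes in degron (−), was at 12.4 and 11.04 FPKM at 30 h and 21.1 and 19.1 at 48 h there, and its part was not tested.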

How the results depend on the processing

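The 24 calls of members between the populations held under every alternative that tested them except 5 lost with TPM rescaling and 1 lost without degron (++) or degron (−) replicate 2 at 4 Gy and 30 h. The 3 calls of STEAP2, at most 4.07 FPKM, were not tested with the filter at 5 FPKM. Counts of genes called depended more on the setting. For 4 Gy against 0 Gy in degron (++) (236) they were 121 with no filter, 150 with quantile normalisation, 57 with TPM rescaling, 128 with eBayes without trend, 125 with a replicate block, 17 with only the libraries compared and 1 to 36 without 1 library. In degron (−) (612) they were 341 with TPM rescaling, 8 with only the libraries compared and 115 to 364 without 1 library. For 48 h against 30 h in degron (++) (156) they were 99 with no filter, 40 with TPM, 78 without trend, 88 with the replicate block, 12 with only the libraries compared and 15 to 25 without 1 library; in degron (−) (930) 611 with TPM, 7 with only the libraries compared and 281 to 665 without 1 library. The dose interaction (10) gave 17 with an added 0.1 FPKM, 76 with no filter, 22 with a filter at 5 FPKM, 35 with quantile normalisation, 20 with TPM, 2 with the block, 6 with only the libraries compared and 0 to 18 without 1 library, and the time interaction (418) 278 with no filter, 225 with TPM, 128 with only the libraries compared and 67 to 379 without 1 library.

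Of the members, 2 were called for time in degron (++), 1 with an added 0.1 FPKM, no filter, quantile normalisation or the replicate block, 0 with TPM or only the libraries compared, and 0 to 1 without 1 library. In degron (−), where 1 was called, there were 2 with an added 0.1 FPKM, 0 with no filter, TPM, no trend or only the libraries compared, and 0 in each fit without 1 library. For dose in degron (++) 0 were called and 0 to 1 without 1 library.

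Reversed values were never called. With quantile normalisation STEAP2 was at −0.0068 and FTL at 0.0072 for dose in degron (−), and STEAP2 at 0.0236 and STEAP3 at 0.009 for the dose and time interactions. With an added 0.1 FPKM STEAP2 was at 0.0453 and −0.38 for the dose and time interactions and STEAP4 at −0.26 for the time interaction. With TPM STEAP3 was at 0.0143 for the time interaction. Without 1 library the ranges crossed 0 for dose in degron (++) STEAP2 (−0.0204 to 0.0418), in degron (−) FTL (−0.0756 to 0.0691), SLC11A2 (−0.10 to 0.15), STEAP2 (−0.12 to 0.20) and TFRC (−0.0385 to 0.0278), for time in degron (++) STEAP1 (−0.31 to 0.19) and in degron (−) STEAP3 (−0.0718 to 0.0122), for the dose interaction FTH1 (−0.0512 to 0.0264), SLC11A2 (−0.25 to 0.0035) and STEAP2 (−0.19 to 0.13), and for the time interaction SLC11A2 (−0.15 to 0.10), STEAP1 (−0.10 to 0.40), STEAP2 (−0.0149 to 0.091) and STEAP3 (−0.0474 to 0.0365). The cause was not tested.

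Quantile normalisation gave FTH1 to FTL ratios of 0.546 in degron (++) and 0.288 in degron (−). With an added 1 FPKM the STEAP2 share was 2.60% and 6.98%, the STEAP3 share 68.7% and 65.4%, and the STEAP4 share in degron (−) 2.09%. Replicate numbers do not pair the libraries: deviations of same-numbered libraries correlated at −0.0381 to 0.122 over 15 pairs of groups, 2 of them above 0.1, and the block cost STEAP4 in degron (++) its call for time and no other member call. Depth is unknown without counts, which limits SLC40A1, HAMP and STEAP2 in degron (++) most.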
